A study of Sus scrofa with 44 samples.

Results

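Myostatin (MSTN) and 9 further genes of TGF-beta family signalling were followed through prenatal muscle formation in the pig. The 10 members were chosen by gene symbol and cover ligands (MSTN, TGFB1, TGFB2, TGFB3 and BMP4), a secreted binding protein (FST), type II receptors (ACVR2A and ACVR2B) and intracellular SMADs (SMAD3 and SMAD7). They are 10 of the 22427 genes in the expression files, and 9 of them reached a mean of 1 TPM (a unit of transcript abundance normalised to length and library total) over the 18 input libraries and were tested. ACVR2B did not. The study sequenced RNA before (input) and after immunoprecipitation with an antibody against N6-methyladenosine (m6A), the most common internal modification of messenger RNA. The tissue was the longissimus dorsi, which runs along the spine, taken on days 33, 40, 50, 60, 70 and 95 after coitus (written E33, E40 and so on). Each of the 6 stages has 3 samples of either kind, all from rRNA-depleted RNA. Another 8 samples are of the porcine kidney line PK15, labelled as adult, 2 of either kind for polyA RNA and 2 for rRNA-depleted RNA. The labels name no breed, genotype or treatment, and they do not say which animals or litters the libraries came from, so p-values measure the spread between these libraries.

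Ligands of the TGF-beta family bind pairs of type I and type II receptor kinases, which phosphorylate SMAD proteins that enter the nucleus and control transcription. Myostatin is made mainly by muscle and restrains its growth. It binds the activin receptors ACVR2B and ACVR2A, signals through SMAD2 and SMAD3, and is neutralised by follistatin (FST). The TGF-beta isoforms also use SMAD3 and inhibit myoblast differentiation in culture, BMP4 signals through a separate branch of SMADs, and SMAD7 is an inhibitor that these pathways induce.

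Every expression file summed to 1000000 TPM, so sequencing depth is unknown and the number of libraries and their spread set the precision. A single gene, ENSSSCG00000032395, held between 37.4% and 72.4% of the TPM of a library, and ENSSSCG00000032599 held over 10% in E40 replicate 2 and E50 replicate 3. Values were therefore scaled by median ratio, which moved the median log2 change of all genes between E33 and E95 from -1.02 as deposited to -0.01. Rescaling without those 2 genes left it at -0.60. Levels below are scaled TPM unless stated, changes are of log2(scaled TPM + 1), which understates low genes, and the change or count as deposited is given beside the calls. Of 10 skeletal muscle markers, 9 had a row, none was at 0 at any stage, and their summed level ran from 3170 to 3719 at E33 and from 15860 to 24820 at E95. In such bulk tissue, fewer cells of a type and less RNA per cell cannot be told apart.

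After scaling, TGFB1 rose between E33 and E95 while TGFB2 and TGFB3 fell, so that the 3 isoforms drew together, and myostatin did not pass the test. BMP4 fell steeply between E33 and E40, and the receptor gene ACVR2A fell between E33 and E95. Over all stages, limma's F test called 6 of the 9 members tested (TGFB1, TGFB2, TGFB3, BMP4, FST and ACVR2A) at an adjusted p under 0.05, where 47.5% of all 13334 genes were called, and as deposited it called 3 (TGFB3, BMP4 and ACVR2A), where 20.1% of all genes were called. In E95 against E33, limma called 5 members after scaling, 1 higher and 4 lower, where 46.7% of all genes were called, 22.8% higher and 23.8% lower. With values as deposited it called 0 higher and 5 lower, where 48.5% of all genes were called, 2.64% higher and 45.8% lower. The members' median log2 change was -0.40 after scaling, against -0.01 over all genes tested, and -1.52 against -1.02 as deposited.

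**Figure D1:**
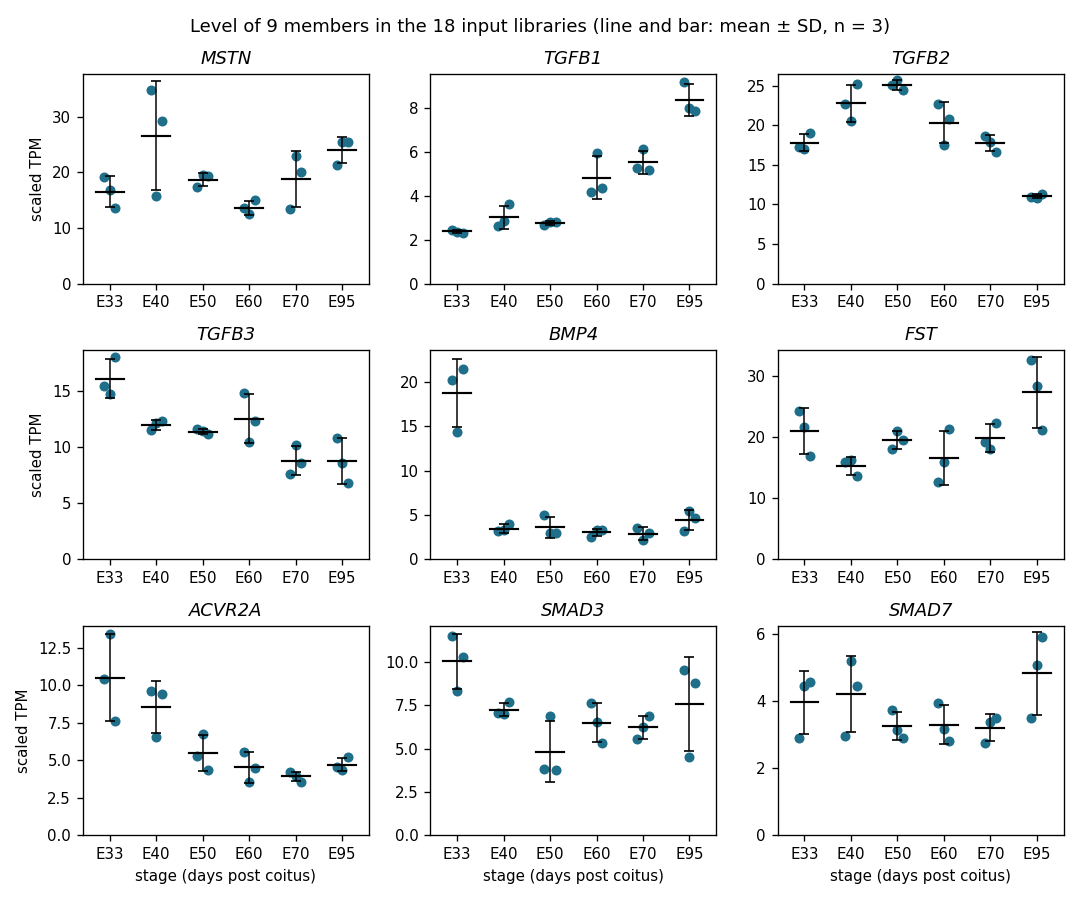
Scaled TPM (vertical axis, linear, from 0) of the 9 members tested in the 3 input libraries of each stage (horizontal axis), with the mean ± SD as a line and bar. The mean of TGFB1 is 2.38 at E33 and 8.36 at E95, that of BMP4 is 18.7 at E33 and at most 4.46 from E40 on, and the myostatin values of all stages overlap with those of their neighbours in the order of means.

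Myostatin (ENSSSCG00000016047, chromosome 15, 94623526 to 94628440, minus strand) was measured at 19.1, 16.8 and 13.5 at E33 and at 34.9, 15.8 and 29.2 at E40. Later libraries had 17.3, 19.5 and 19.3 (E50), 13.5, 12.5 and 15.0 (E60), 13.3, 23.0 and 20.1 (E70), and 21.4, 25.4 and 25.4 (E95). The order of the stage means was E40, E95, E70, E50, E33 and E60, with 26.6 ± 9.80 at the top and 13.7 ± 1.26 at the bottom (SD, n = 3), and no neighbours in it were free of overlap. E40 replicate 2 lay below the other E40 libraries, and all 3 libraries of E95 lay above all 3 of E33, a separation that 55.4% of all genes showed in one direction or the other. The log2 change from E33 to E95 was 0.53 (95% interval 0.01 to 1.04) with a limma adjusted p of 0.0856, so it was not called. The change was -0.67 as deposited (adjusted p 0.313), above the all-gene median of -1.02, and its direction therefore depended on the scaling. The limma F test over all stages gave an adjusted p of 0.0573 and E40 against E33 a change of 0.60 (95% interval 0.09 to 1.12, adjusted p 0.0899). Whether myostatin was called depended on the libraries fitted. Fitting only the 6 libraries of E33 and E95 called that change (0.53, adjusted p 0.0347). Without E40 replicate 2, one of the libraries with over 10% of their TPM in ENSSSCG00000032599, the F test (adjusted p 0.00236), E40 against E33 (0.93, adjusted p 0.00424) and E95 against E33 (0.53, adjusted p 0.0225) all called myostatin, and the F test also did without E70 replicate 1 (0.0355) or 2 (0.0497).

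The genes whose scaled log2 values followed myostatin most closely over the 18 libraries were TMEM30A (Pearson r 0.804), DIS3 (0.780) and WDR82 (0.777). Such correlations describe libraries that share their stages and their scaling, and none was tested.

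TGFB1 (ENSSSCG00000003017, chromosome 6, 49332169 to 49348642, minus strand), the isoform best known in wound repair and fibrosis, had 2.46, 2.35 and 2.32 at E33 and 9.20, 8.03 and 7.86 at E95. Values in between were 2.63, 2.84 and 3.62 (E40), 2.66, 2.79 and 2.81 (E50), 4.16, 5.94 and 4.36 (E60) and 5.27, 6.12 and 5.18 (E70). In the order of means E95 lay above E70, E60 above E40 and E50 above E33 without overlap, while E70 overlapped with E60 and E40 with E50. The log2 change from E33 to E95 was 1.47 (SE 0.12, limma adjusted p 1.17e-07), and as deposited it was 0.45 with an adjusted p of 0.323, which was not called.

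TGFB1 also differed between neighbouring stages. E60 exceeded E50 by 0.62 (SE 0.12, limma adjusted p 0.0202), the only call among the members in that comparison, where 0.817% of all genes were called. This call was lost without any 1 of the E50 libraries (adjusted p 0.0598 to 0.0625) or without E60 replicate 2 (0.0858), and as deposited the change was 1.20 with an adjusted p of 0.320, where 0.06% of all genes were called. E95 exceeded E70 by 0.52 (adjusted p 0.00767), one of 2 members called where 13.5% of all genes were, and as deposited by 0.04 (adjusted p 0.966), where 0.285% of all genes were called. The libraries of E95 and E70 did not overlap, which held for 32.0% of all genes. The 3 genes most like TGFB1 were EEF1A2 (Pearson r 0.962 over 18 libraries), IP6K3 (0.958) and TFEB (0.953). EEF1A2 encodes the elongation factor isoform of muscle and neurons. Endothelial markers also rose from E33 to E95. After scaling 6 of 6 were higher, where 22.8% of all genes were, and as deposited 1 of 6 (EMCN), where 2.64% were. None was at 0, and their summed scaled level ran from 25.4 to 33.1 at E33 and from 89.7 to 102.0 at E95. The 5 macrophage markers, none at 0, summed to 32.9 to 41.6 at E33 and 47.4 to 84.6 at E95, with 4 of 5 higher after scaling and 0 as deposited. The rise was not particular to these cell types. After scaling, 6 of 9 skeletal muscle markers were higher and 2 lower (5 and 3 as deposited). Of 7 connective tissue markers, 5 were higher and 2 lower (0 and 2 as deposited), and 2 of 2 adipocyte markers were higher on both scales. In E60 against E50, 0 of 6 endothelial and 0 of 5 macrophage markers were called. The part of any cell type in the change of TGFB1 was not tested.

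TGFB2 (ENSSSCG00000010816, chromosome 10, 8306136 to 8435307, plus strand), an isoform needed for the development of many organs, had its highest scaled mean at E50, where it overlapped with E40. As deposited the mean was highest at E33, with 30.3 TPM against 26.6 at E40 and 21.3 at E50. Its libraries had 17.3, 17.1 and 19.0 (E33), 22.7, 20.6 and 25.2 (E40), 25.1, 25.7 and 24.5 (E50), 22.7, 17.5 and 20.8 (E60), 18.6, 17.9 and 16.6 (E70), and 11.0, 10.8 and 11.3 (E95). All 3 libraries of E95 lay below all 15 others. The share of all genes with such a separation was not counted. For E95 against E70 alone it was 32.0%, in one direction or the other. The log2 change was -0.64 from E33 to E95 (SE 0.10, limma adjusted p 7.58e-05, -1.82 as deposited and called there too) and -0.64 from E70 to E95 (SE 0.10, adjusted p 5.63e-04). That last change was -1.13 as deposited, with an adjusted p of 0.585.

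In E40 against E33, limma called 2 members, TGFB2 higher and BMP4 lower, where 21.0% of all genes were called, 10.1% higher and 10.9% lower. As deposited it called BMP4 lower, where 4.87% of all genes were called. The TGFB2 difference was 0.34 (SE 0.10, adjusted p 0.0236), and it was -0.35 as deposited (adjusted p 0.639). The call was also lost without E33 replicate 1 or 2 or without E40 replicate 1 or 3 (adjusted p 0.0653 to 0.107). Closest to TGFB2 over the 18 libraries were VCAN (Pearson r 0.953), LRRC17 (0.950) and CHSY1 (0.947). VCAN encodes versican, a large matrix proteoglycan, and CHSY1 an enzyme that builds the chondroitin chains such proteoglycans carry.

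TGFB3 (ENSSSCG00000002385, chromosome 7, 99133873 to 99162239, minus strand), known for its role in palate closure, had 15.5, 14.8 and 18.1 at E33. It had 11.5, 12.2 and 12.4 (E40), 11.6, 11.4 and 11.2 (E50), 14.8, 10.5 and 12.4 (E60), 7.62, 10.2 and 8.62 (E70), and 10.9, 8.64 and 6.80 (E95). The libraries of E33 lay above all of E95, a separation that 55.4% of all genes showed in one direction or the other. E50 lay above E70 without overlap, and the share of all genes was not counted there. The log2 change from E33 to E95 was -0.83 (SE 0.15, limma adjusted p 3.65e-04) and -1.99 as deposited, called on both scales. E40 against E33 was called (adjusted p 0.0474) only without E95 replicate 3. B4GALNT4 was the gene most like it (Pearson r 0.914).

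Ratios within a library do not move with its scaling, and they show how the isoforms drew together. TGFB2 stood at 7.04, 7.25 and 8.23 times TGFB1 at E33, at 8.63, 7.24 and 6.96 times at E40, and at 9.45, 9.22 and 8.71 times at E50. The ratio was 5.46, 2.95 and 4.77 at E60, 3.54, 2.92 and 3.21 at E70, and 1.20, 1.35 and 1.44 at E95. The lowest of the 9 libraries up to E50 lay above the highest of the 9 libraries from E60 on. TGFB3 stood at 6.30, 6.29 and 7.82 times TGFB1 at E33 and at 1.18, 1.08 and 0.865 times at E95. In between its median was 4.30 (E40), 4.10 (E50), 2.84 (E60) and 1.66 (E70). These ratios of TPM, a unit per transcript length, were not tested and are given as a description.

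**Figure D2:**
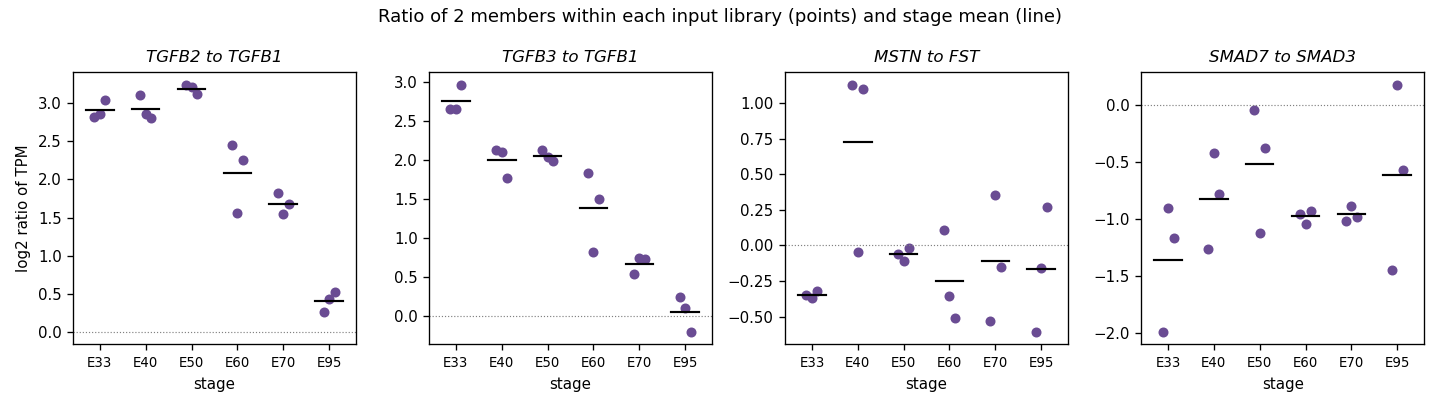
Log2 ratio of TPM (vertical axis, a separate scale in each panel) between 2 members within each of the 18 input libraries (points) by stage, with the stage mean as a line and the dotted line at equal levels. TGFB2 stands at 6.96 to 9.45 times TGFB1 up to E50 and at 1.20 to 1.44 times at E95, while the ratio of MSTN to FST and that of SMAD7 to SMAD3 overlap between most stages.

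BMP4 (ENSSSCG00000005045, chromosome 1, 183415989 to 183422888, minus strand), a ligand that patterns embryonic mesoderm and keeps muscle progenitors from differentiating, was the member with the largest change. It had 20.2, 14.3 and 21.5 at E33 and 3.15, 3.27 and 4.01 at E40. In the 15 libraries from E40 on it stayed between 2.17 and 5.44, so E33 stood apart from all later stages. For E40 against E33 alone, 38.6% of all genes separated in one direction or the other. The later stages overlapped with their neighbours in the order of means. The log2 change from E33 to E40 was -2.12 (SE 0.21, limma adjusted p 1.03e-05) and -2.77 as deposited. From E33 to E95 it was -1.85 (SE 0.21, adjusted p 4.1e-06) and -2.96 as deposited, so both changes were called on both scales.

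The summed markers of neuronal, cartilage, erythroid and Schwann cells were also higher at E33 than at E40, while those of skeletal muscle and endothelial cells were lower. The Schwann markers summed to between 10.6 and 13.8 at E33 and between 5.88 and 7.81 at E40. Of the 2 tested, 1 (SOX10) was lower at E40 on both scales. The summed level of the 6 neuronal markers, of which 5 had a row, ran from 103 to 134 at E33, from 19.6 to 25.7 at E40 and from 2.51 to 4.87 at E95, and 3 of the 3 tested were lower at E40 on both scales, where 10.9% of all genes were lower after scaling. Cartilage markers summed to between 114 and 162 at E33 and between 64.7 and 112 at E40, with 3 of 5 lower at E40 on both scales. The 5 erythroid markers with a row summed to between 87.4 and 235 at E33 and between 13.2 and 47.0 at E40, with 2 of 5 lower after scaling and 1 as deposited. The 2 were HBZ, the embryonic zeta globin (-5.42, called on both scales), and SLC4A1 (-0.68, called after scaling), while HBM (0.23), ALAS2 (0.41) and AHSP (1.25) were not called. None of these markers was at 0 in all libraries of E33 or E40. The genes most like BMP4 were VWA5B2 (Pearson r 0.966), EFNB2 (0.958) and GAP43 (0.955), the last a protein of growing axons. The part of these cell types in the fall of BMP4 was not tested.

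FST (ENSSSCG00000016892, chromosome 16, 32806341 to 32811382, plus strand), which binds myostatin and activins, passed the F test across stages (limma adjusted p 0.0313) but none of the 6 contrasts. The F call was lost under all 3 other scalings (0.303 as deposited, 0.131 under quantile normalization and 0.139 after rescaling without the 2 most abundant genes). It was also lost without both E40 replicate 2 and E50 replicate 3 (0.0577) and without any 1 of E40 replicates 1 and 3, E60 replicate 2 and E95 replicates 1 and 2 (0.053 to 0.107). It had 24.4, 21.6 and 16.9 at E33, 16.0, 16.3 and 13.7 at E40, and 32.6, 28.4 and 21.1 at E95, and the 9 libraries between lay from 12.6 to 22.3. All 3 libraries of E40 lay below those of E33, a separation in one direction or the other that 38.6% of all genes showed. The change from E33 to E95 was 0.36 (95% interval -0.04 to 0.76, adjusted p 0.129), -0.85 as deposited, and with 1 library left out it ran from 0.22 (without E33 replicate 3) to 0.53 (without E95 replicate 3, the only such setting that called it, adjusted p 0.0372).

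Set against its binding protein, myostatin was a little below FST at E33, at 0.785, 0.776 and 0.802 times. At E40 it stood at 2.19, 0.970 and 2.14 times FST, where replicate 2 again differed from the others. In the 12 libraries from E50 on the ratio lay between 0.656 and 1.28.

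ACVR2A (ENSSSCG00000015669, chromosome 15, 4177333 to 4259056, minus strand), a type II receptor for activins and myostatin, had 10.4, 13.4 and 7.64 at E33 and 9.62, 6.53 and 9.43 at E40. It had 5.31, 6.79 and 4.37 (E50), 5.57, 3.56 and 4.46 (E60), 4.23, 3.98 and 3.59 (E70) and 4.55, 4.39 and 5.20 (E95). The levels of E33 lay above all of those from E50 on, although no neighbours in the order of means were free of overlap. For E95 against E33 alone, 55.4% of all genes separated in one direction or the other. The log2 change from E33 to E95 was -0.98 (SE 0.20, limma adjusted p 8.29e-04) and -2.07 as deposited, called on both scales. In E50 against E40 limma called 0 of the members, where 1.54% of all genes were called. LRFN5 (Pearson r 0.953), TLL1 (0.936) and STT3B (0.934) were most like ACVR2A, and TLL1 encodes a protease that can release myostatin from its latent complex.

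ACVR2B (ENSSSCG00000011257, chromosome 13, 23237699 to 23276086, plus strand), the receptor that binds myostatin with high affinity, was listed at 2.24e-04 to 0.002 TPM as deposited in the 18 libraries. No stage stood apart, and it was too low to be tested. Such a level is far under 0.01 TPM, a limit that 2987 genes did not reach in any of the 18 libraries. The peak lists nevertheless held ACVR2B at E50, E60, E70 and E95 and in both PK15 preparations, as described below with the other peaks.

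SMAD3 (ENSSSCG00000004952, chromosome 1, 164998457 to 165124455, plus strand), which carries the signal of myostatin and of the TGF-beta isoforms, had 11.5, 8.32 and 10.3 at E33 and 9.51, 4.50 and 8.79 at E95. The 12 libraries between lay from 3.78 to 7.69, below all 3 of E33. The share of all genes with such a separation was not counted, but for E40 against E33 alone it was 38.6% in one direction or the other. The change from E33 to E95 was -0.40 (95% interval -0.90 to 0.09, limma adjusted p 0.172) and was not called, while as deposited it was -1.52 (adjusted p 0.0173) and was called lower. With 1 library left out it ran from -0.58 (without E95 replicate 1) to -0.11 (without E95 replicate 2), called in none. The F test gave an adjusted p of 0.0563, and it called SMAD3 without E50 replicate 2 (0.0142) or E95 replicate 2 (0.00771). SMAD7 (ENSSSCG00000004507, chromosome 1, 98512800 to 98543924, minus strand), the inhibitory SMAD, lay between 2.76 and 5.92 in all 18 libraries. Its change from E33 to E95 was 0.23 (95% interval -0.19 to 0.64, adjusted p 0.366) after scaling and -0.81 as deposited, called on neither scale, and with 1 library left out it ran from 0.06 (without E33 replicate 1) to 0.41 (without E95 replicate 1). Per library SMAD7 stood at 0.252 to 0.534 times SMAD3 at E33 and at 0.367 to 1.13 times at E95, so these stages overlapped. In E70 against E60 limma called 0 of the members, where 1.76% of all genes were called.

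**Figure D3:**
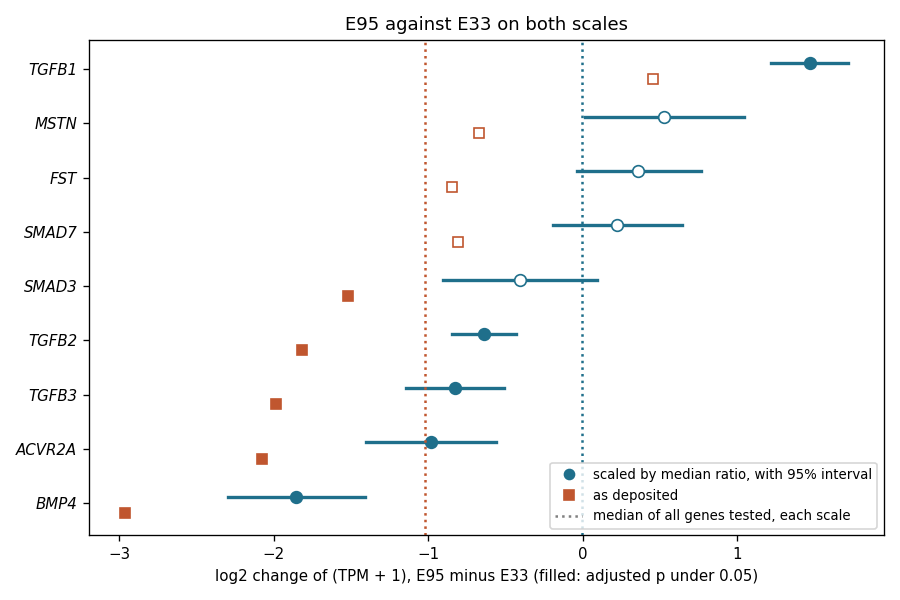
Change of log2(TPM + 1) from E33 to E95 (horizontal axis) of the 9 members tested (rows), scaled by median ratio with its 95% interval (circles) and as deposited (squares), filled where limma's adjusted p was under 0.05. Dotted lines mark the median of all genes tested, -0.01 after scaling and -1.02 as deposited. TGFB1 at 1.47 and BMP4 at -1.85 lie at the ends of the scaled order.

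A list of 79 other genes of the pathway, sorted by role, gave the setting of these changes, and 78 of them had a row and 66 were tested. In E95 against E33, limma called 12 higher and 22 lower, and 32 did not pass, with a median change of -0.21 against -0.01 over all genes tested. As deposited 0 were called higher and 39 lower, and after rescaling without the 2 most abundant genes 4 higher and 42 lower, so the split depended on the scaling. In E40 against E33 there were 6 higher and 13 lower of 66, where 10.1% and 10.9% of all genes were.

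Among target genes, 7 of the 12 tested fell and 1 rose from E33 to E95, with a median change of -1.06, where 23.8% of all genes fell and 22.8% rose. As deposited 9 were lower and 0 higher, where 45.8% and 2.64% of all genes were. ID2, an inhibitor of differentiation factors induced by BMP signalling, averaged 45.8 ± 1.43 at E33 and 13.4 ± 2.70 at E95 (SD, n = 3), a change of -1.72 (limma adjusted p 1.26e-04, -2.92 as deposited). ID4 changed by -1.43 (adjusted p 0.00268, -2.59 as deposited) and MSX1, a homeobox gene of undifferentiated mesenchyme, by -1.32 (adjusted p 0.00199, -2.22 as deposited). Of the 7 other ligands tested, 3 fell and 1 rose, against 4 lower and 0 higher as deposited. INHBA, the subunit of activin A, fell by 1.61 on the log2 scale (adjusted p 5.72e-04, -2.64 as deposited) and GDF11, the closest relative of myostatin, averaged 15.4 ± 1.97 at E33 and 5.83 ± 0.611 at E95, a change of -1.26 (adjusted p 1.31e-05, -2.40 as deposited). INHBB, the subunit of activin B, rose by 1.16 (adjusted p 0.0479), with 0.32 as deposited.

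Of the secreted binding proteins and inhibitors, 5 of 18 were higher and 5 lower after scaling, a share near that of all genes each way (22.8% and 23.8%), and 0 were higher and 8 lower as deposited. The BMP antagonists GREM1 and NOG changed by -3.09 and -2.42 (limma adjusted p 2.51e-04 and 0.0108, with -4.08 and -3.49 as deposited), GREM1 from 21.6 ± 3.77 to 1.64 ± 0.395, while CHRDL1, also a BMP antagonist, rose by 1.43 (adjusted p 2.07e-06, 0.81 as deposited). Of the 6 processing and activating enzymes tested, 3 fell and 1 rose, against 5 lower and 0 higher as deposited. TLL1 fell by 2.28 (adjusted p 2.43e-08, -3.01 as deposited), PCSK5, a proprotein convertase, by 1.06 (-1.97 as deposited) and THBS1, an activator of latent TGF-beta, by 1.00 (-2.24 as deposited). Of 10 receptors 1 rose and 1 fell, against 5 lower and 0 higher as deposited. ENG, a co-receptor of endothelial cells, rose by 1.08 (adjusted p 4.7e-04, -0.06 as deposited) and ACVR1B, a type I receptor for activins and myostatin, fell by 0.77 (adjusted p 9.64e-04, -1.78 as deposited). Of 13 intracellular SMADs and regulators 3 rose and 3 fell, against 0 and 8 as deposited. They included PPM1A, a phosphatase of SMADs, at 1.26 (adjusted p 9.9e-07, 0.18 as deposited), SMURF1 at -0.80 (-1.86 as deposited) and the inhibitory SMAD6 at -0.63 (-1.63 as deposited). The genes named here as falling were lower on all 4 scalings that were run. Of those named as rising, ENG was higher on 3 of the 4, and INHBB, CHRDL1 and PPM1A were higher on all 4 but were not called as deposited, nor was INHBB after rescaling without the 2 most abundant genes.

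The m6A peaks were read from 8 lists, 1 per stage and 1 per PK15 preparation. The fold enrichment and p-value of each peak are those of the authors' peak caller, and with 1 list each there are no replicates, so differences between lists were not tested. The members held 72 peaks in the 6 muscle lists and 89 in all 8, in 21 separate regions. TGFB2, TGFB3 and SMAD3 had a peak at all 6 stages, ACVR2A at 5 (not E40), MSTN at E33, E50, E70 and E95, ACVR2B at E50, E60, E70 and E95, BMP4 at E33 and E70, and SMAD7 at E33. TGFB1 had none in muscle but 2 in the PK15 polyA list, both in the 3′ UTR, and FST had none in any of the 8 lists.

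Of the 9 members with a mean of at least 1 TPM at each stage, 7 had a peak at E33, where 33.5% of all such genes did. The count was 3 at E40 (22.9% of all genes), 5 for E50 (32.6%), 4 for E60 (31.7%), 6 for E70 (35.6%) and 5 for E95 (37.5%). E40 also had the shortest list, with 4928 peaks against 7058 to 8685 at the other stages. A missing peak is not a measurement of an unmodified transcript.

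**Figure D4:**
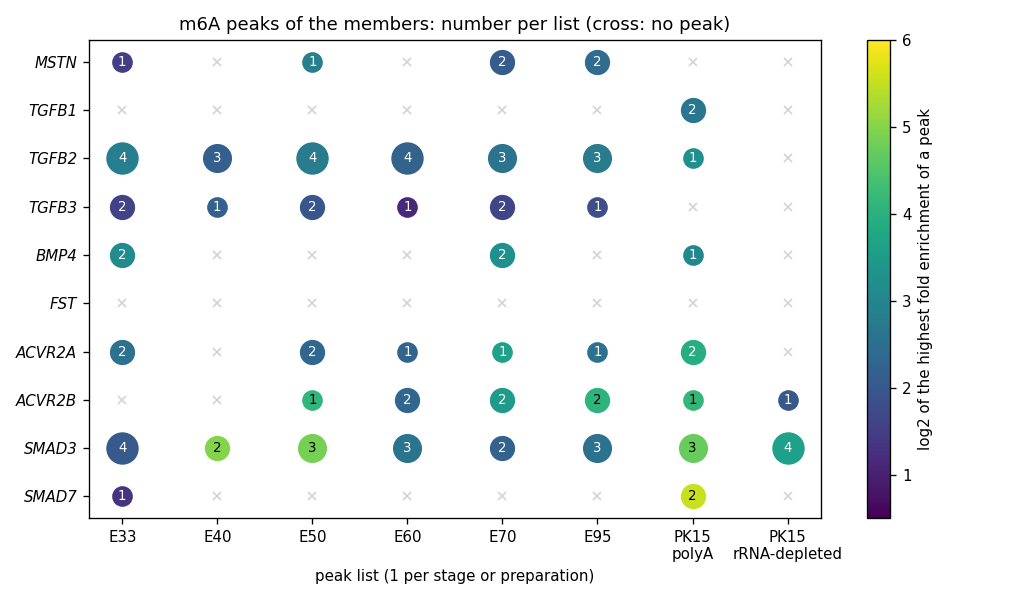
Number of m6A peaks of each member (rows) in each of the 8 lists (columns), with the circle's area growing with the number and its colour giving log2 of the highest fold enrichment among those peaks. A cross marks no peak in the list. TGFB2 holds 3 or 4 peaks at every stage, SMAD3 reaches a fold of 31.6 at E40, and FST is empty throughout.

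The sites below lie in the most often shared stretch of a peak region of other ligands, the receptors and the SMADs. Each is 29 bases of the Sscrofa11.1 genome read from RefSeq on the gene's strand, 5′ to 3′, with a match to DRACH, the motif in which m6A occurs (A, G or T, then A or G, then A, then C, then A, C or T), in capitals. Where the stretch held GGACT that match was taken, and otherwise the match nearest the middle. The region used was not always the one listed at most stages. The SMAD3 stretch was shared by 4 stages, while those in exon 5 and 1766 bases past the stop codon were shared by 5. The SMAD7 stretch was listed at 1 stage, E33. Not every region had a match. None lay within the most shared stretch of the TGFB2 5′ UTR region (6 stages) or its 3′ UTR region (5 stages). The same held for the ACVR2A and SMAD3 regions before the transcript start.
TGFB2 exon 1: caacagcaccagGGACTtgctccaggaga
TGFB3 exon 2: cacccaggtcctGGACCtttacaacagca
BMP4 exon 3: tcaagggagtggGGACTgggcccagctcc
ACVR2A past the stop codon: aggatgtctcctGGACAtgtcagaaagaa
ACVR2B at the stop codon: catctaagcccaGGACAcgtggacctcca
SMAD3 exon 10: ggtcaaggaagaAGACAtttttctccctc
SMAD7 exon 4: acagctcaattcGGACAacaagagtcagc

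In the same order, these lie at chr10:8307002-8307030 (plus strand), chr7:99153619-99153647 (minus strand), chr1:183416681-183416709 (minus), chr15:4177235-4177263 (minus), chr13:23265811-23265839 (plus), chr1:165120087-165120115 (plus) and chr1:98514638-98514666 (minus). A match is a description of the letters and shows no modified base. In the 101 bases around a peak's midpoint, on the strand of the gene, DRACH was found in 87.6% to 91.4% of all peaks of a list and GGACT in 16.6% to 19.2%, with the reversed letters TCAGG in 11% to 12%. Of the members' peaks, 4 of 16 held GGACT at E33, 1 of 6 at E40, 1 of 13 for E50, 2 of 11 for E60, 4 of 14 for E70 and 3 of 12 for E95. Peaks of 1 region in several lists share their letters, so these are not separate observations.

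Both myostatin regions lay in coding sequence. The first, in exon 2 and centred at -570 bases from the stop codon (negative before it), had a fold enrichment of 2.83 at E33, 7.26 at E50, 4.22 at E70 and 5.38 at E95, with peak p-values from 5e-19 to 2.6e-10. The second, in exon 3 and centred at -241 bases, was listed only at E70 with 2.89 and at E95 with 2.70. The E50 peak exceeded 77.1% of the peaks of its list, and the E33 peak 30.3%. The lists of E40 and E60, the stages with the highest and the lowest mean level of myostatin, held none. The RefSeq transcript of MSTN is 1128 bases long and ends at the stop codon. Peaks past the end of a transcript were kept with their gene, as for ACVR2A below, and none was listed for MSTN. MSTN overlaps C15H2orf88 on the other strand, and as the counting is not stated to use strand, the reads of the pair cannot be told apart.

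TGFB2 carried 4 regions, the most in muscle together with SMAD3. A region in the 5′ UTR and one in the coding part of exon 1, where GGACT stands in the sequence above, were listed at all 6 stages, with folds of 3.11 to 4.18 and of 2.86 to 4.72. A region of the 3′ UTR, centred 641 bases past the stop codon, had folds of 7.15 (E33), 6.90 (E50), 4.65 (E60), 6.04 (E70) and 6.91 (E95), and was in the PK15 polyA list at 9.26. The region of 2.75 to 3.26 at E33 to E60 lay 568 bases before the start of the RefSeq transcript. The 3′ UTR peak exceeded 93.5% of its list at E33, 74.0% at E50, 61.3% at E60 and 75.6% at E70. At E95, where the TGFB2 level was the lowest of all stages, it exceeded 80.4%.

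TGFB3 had a coding region around exon 2 in all 6 muscle lists, with folds from 2.18 at E60 to 4.52 at E40, and a weak 3′ UTR region at E33, E50 and E70 (1.73 to 2.73). BMP4 was listed at E33, when its level was high, with 8.72 and 4.30, and again at E70, when its level was low, with 3.92 and 9.33. Its single region spans the end of the coding sequence in exon 3 and also appeared in the PK15 polyA list. TGFB3 overlaps IFT43 and SMAD3 overlaps AAGAB, each on the other strand, and TGFB1 overlaps LOC110261354 on its own strand.

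ACVR2B had peaks at its stop codon, with midpoints from -41 to 33 bases, and further into the 3′ UTR. At the stop codon the fold was 17.1 at E50, 4.94 at E60, 4.43 at E70, 16.7 at E95 and 4.0 in the PK15 rRNA-depleted list. Those further on had 4.88 at E60 (midpoint 586), 11.3 at E70 (317) and 3.72 at E95 (601), and a long peak of the PK15 polyA list, with 17.6, covered both. Of the 2987 genes under 0.01 TPM in all 18 libraries, 31 (1.04%) had a peak at any stage, which is 0.492% of the 6307 genes with a muscle peak. ACVR2B was one of 13 with peaks at 4 or more stages, among them NEMF, STX5 and RNF167, which were chosen after their values were seen. How the authors' TPM and peaks were assigned to genes is not given in the sources used here, so the value of ACVR2B is given only as listed, and why it and the peaks differ was not tested.

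ACVR2A had a region whose most shared stretch lies 73 bases past the end of its RefSeq transcript, which has little annotated beyond the stop codon. Its fold was 3.77 at E33, 4.99 at E50, 4.86 at E60, 12.2 at E70, 5.76 at E95 and 13.5 in the PK15 polyA list. The E70 peak exceeded 95.5% of its list, and a separate E50 peak (3.67) lay at -124 bases from the stop codon. A further region 516 bases before the transcript start was listed at E33 (5.85) and in PK15 polyA (15.3).

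SMAD3 held the muscle peaks with the highest fold of the members. The TGFB2 3′ UTR region had smaller peak p-values in muscle than SMAD3, from 1e-167 at E33 to 1.6e-81 at E60. Just past the SMAD3 stop codon, in the 3′ UTR of exon 10, the fold was 31.6 at E40 (peak p-value 3.2e-11), which exceeded 99.9% of the list. At E50 it was 28.9 (peak p-value 1.9e-10), which exceeded 99.6%. Peaks at the same place had 6.12 at E60, 4.74 at E95 and 6.46 in the PK15 rRNA-depleted list, and none was listed there at E33 or E70. The E33 peak (4.03) and a second one of the PK15 rRNA-depleted list (4.0) lay further on, at 482 bases, without overlapping the first site, and the long PK15 polyA peak (26.4) covered both. SMAD3 levels at E50 were 3.86, 6.87 and 3.78, the lowest stage mean, whereas those at E40 were 7.08, 6.98 and 7.69. A region 1766 bases past the stop codon was steadier, between 3.64 and 5.88 at 5 stages. A coding region around exon 5 had peaks at all 6 stages, at 2.50 to 4.74. At E40 the peak lay in exon 4 alone, and the stretch in exon 5 was shared by the 5 other stages. SMAD7 had 1 muscle peak, at E33 in exon 4 with a fold of 2.55, and in the PK15 polyA list a peak in exon 1 reached 46.6, above 97.4% of that list.

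**Figure D5:**
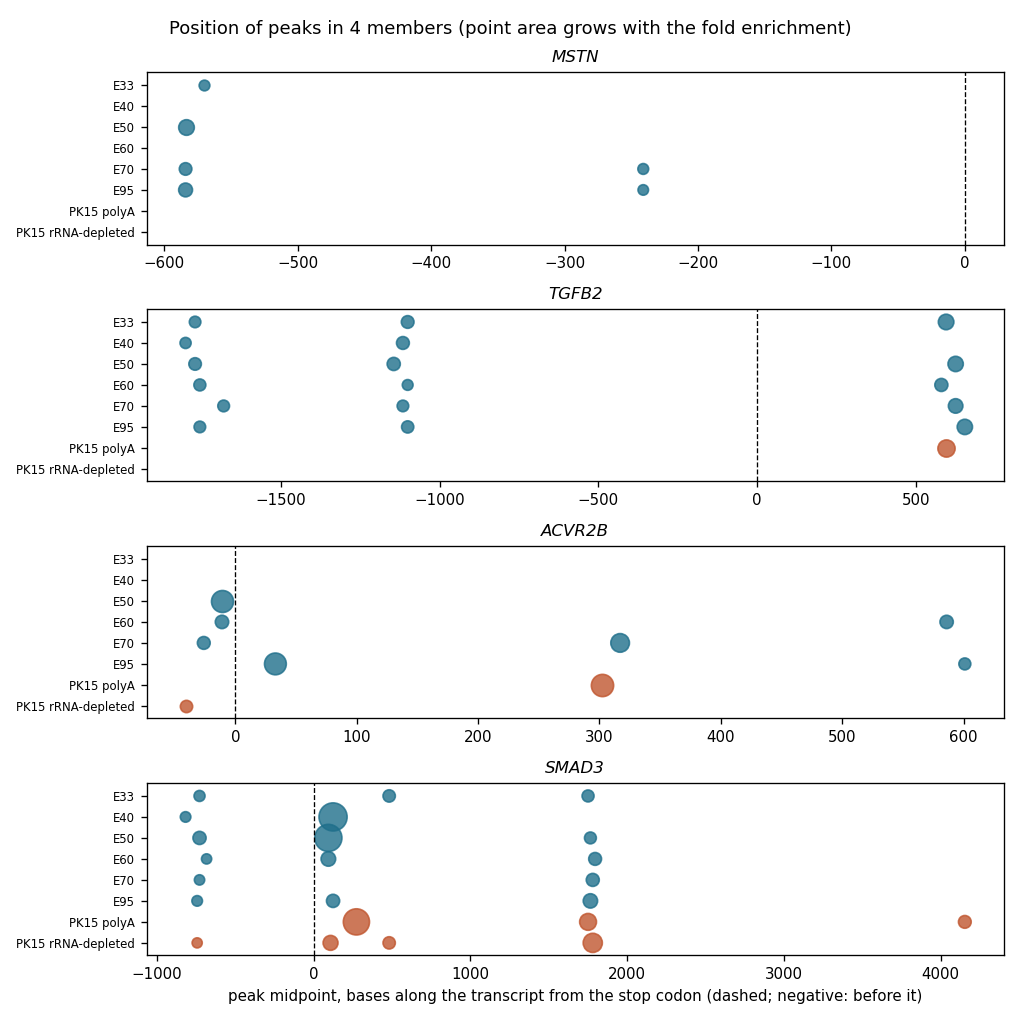
Midpoints of the peaks of 4 members along the RefSeq transcript, in bases from the stop codon (dashed line, horizontal axis, a separate scale in each panel), in each of the 8 lists (rows, PK15 in orange), with the point's area growing with the fold enrichment. MSTN peaks stand about 2 coding positions, -570 and -241, and the largest points of SMAD3 stand just past it at E40 and E50. The TGFB2 region before the transcript start and the SMAD3 peak there are not drawn.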

How the data were processed

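The members and the lists of pathway and marker genes were chosen with earlier results of these data known. Deposited expression files give TPM computed by the authors, per the file headers, for 18 muscle input libraries. Deposited peak lists give a ratio (fold enrichment) and a p-value per peak from the authors' caller, and log10 columns beside it that were not used. Reads were trimmed with Trimmomatic and aligned with HISAT2 to Sscrofa11.1, per the submitters' processing notes. The quantification program, gene annotation, strandedness, peak caller, threshold and pooling are not given in the sources used here. Immunoprecipitated libraries and PK15 expression were not analysed here.

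TPM was scaled by median ratio (factors from 0.305 to 2.01) and tested as log2(scaled TPM + 1) with limma 3.58.1 in R 4.3.3, on the 13334 genes whose mean over the 18 libraries reached 1 TPM. The model had 1 mean per stage, 12 residual degrees of freedom, a trended prior, two-sided tests and Benjamini-Hochberg adjustment over all genes, called under 0.05. Tested on simulated data for E95 against E33 with 13334 genes, of which 200 changed, this recovered 72% of log2 changes of 1 and 92% of changes of 2. It also made 8 false calls. In the data 46.7% of all genes were called in that comparison, so these rates need not hold there. No 2 libraries were identical. Spearman correlations within a stage ran from 0.876 to 0.924 across genes.

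The named genes are the members, the up to 3 called genes per pathway role with the largest change in E95 against E33, and the 3 genes most correlated with MSTN, or with another member where r reached 0.9. Peak starts, 0-based in the files, were made 1-based. Peaks sharing at least 1 base were joined into regions and placed in the longest RefSeq coding transcript, and 80.8% to 91.0% of junctions between peak blocks fell at RefSeq introns. Alternatives were other scalings, filters, pseudocounts and replicates left out. Python 3.11.15, pandas 2.3.3, pysam 0.24.0 and matplotlib 3.10.9 were used.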

Additional observations from a re-analysis of the deposited data

How the results depend on the processing

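Of 211 counts recomputed under an alternative, 186 stayed within the limits of the same verdict, as did 358 of 388 changes of single members. The counts include E50 against E40 and E70 against E60, where the main count was 0. A count can also stay while its members differ. In E95 against E33 it was 5 after scaling and as deposited, but as deposited TGFB1 was lost and SMAD3 gained. The share therefore does not measure how stable single calls were. Values as deposited gave 3 members by the F test (6 after scaling), 1 in E40 against E33 (2 after scaling), 0 in E60 against E50 (1 after scaling) and 0 in E95 against E70 (2 after scaling). Rescaling without the 2 most abundant genes gave 1 in E40 against E33, 1 in E70 against E60 (0 otherwise) and 1 in E95 against E70. A mean of at least 5 TPM gave 0 in E60 against E50 and 1 in E95 against E70, since TGFB1 then falls under the filter. Fitting only the 6 libraries of both stages gave 1 in E40 against E33 and 0 in E60 against E50, and leaving out both E40 replicate 2 and E50 replicate 3 gave 0 in E60 against E50. Leaving out 1 replicate at a time gave 5 to 7 members by the F test, 5 to 6 in E95 against E33, 1 to 3 in E40 against E33, 0 to 1 in E60 against E50, 2 to 2 in E95 against E70 and 0 in both other comparisons.

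The direction reversed as deposited for MSTN (-0.67), FST (-0.85) and SMAD7 (-0.81) in E95 against E33 and for TGFB2 (-0.35) in E40 against E33. Without the 2 most abundant genes it reversed for MSTN (-0.10), FST (-0.28) and SMAD7 (-0.35), and SMAD3 was called lower (-1.06, adjusted p 0.00667). The cause was not tested. Peaks above the median fold left 4 members of 7 at E33. Peaks with a p-value under 1e-10 left 3 of 5 at E60, 4 of 7 at E70, 3 of 6 at E95 and 1 of 2 in PK15 rRNA-depleted cells. The depth of the libraries is unknown, so low values such as those of ACVR2B have no counting interval. A replicate block gave 5 members by the F test (FST lost, adjusted p 0.0575) and changed no other count. Deviations of same-numbered libraries correlated at -0.124 to 0.101, and those of other-numbered libraries at -0.129 to 0.116. No pairing by number was visible, but such correlations cannot exclude a shared batch or litter.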
